A study of Mus musculus with 12 samples.

Results

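Livers with a lasting deletion of Keap1 in hepatocytes were set directly against control livers taken 6 h after a single dose of a drug that acts on the same pathway. The groups were chosen by their labels: 3 conditional Keap1 knockout livers given vehicle (CKO vehicle, replicates 3, 4 and 5) and 3 control livers given the drug (WT CDDO-Im, replicates 2, 3 and 4), which are 6 of the 12 livers of the study. The other livers were 3 controls given vehicle (WT vehicle) and 3 knockouts given the drug (CKO CDDO-Im). All mice were C57BL/6J males aged 9 weeks, and each liver was read on its own Affymetrix mouse array.

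CKO mice were Albumin-Cre:Keap1(flox/-), with Cre expressed in hepatocytes, 1 floxed allele and 1 null allele. WT mice were the genetic controls, Alb-Cre:Keap1(flox/+), so they carried Cre and a floxed allele too, and their hepatocytes may keep only the wild-type allele. Cells other than hepatocytes in CKO mice still have 1 null and 1 floxed, working allele. CDDO-Im, the imidazolide of a synthetic triterpenoid, was given by gavage at 30 umol/kg in a vehicle of DMSO, Cremophor-EL and PBS, and vehicle mice received the same mixture without it. The pair of groups differs in genotype and in treatment at once, and in the length of the stimulus, so none of these can be told apart from the others in the direct comparison. The RNA came from whole liver, in which fewer cells of a type and less RNA per cell cannot be told apart.

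Keap1 is an adaptor that holds the transcription factor Nrf2 in the cytoplasm and hands it to a ubiquitin ligase for destruction. Electrophiles such as CDDO-Im modify cysteines of Keap1, and loss of Keap1 removes the adaptor; both let Nrf2 reach the nucleus, pair with small Maf proteins and bind antioxidant response elements. In liver its targets include enzymes that make and use glutathione, reduce quinones and carbonyls, supply NADPH and pump conjugates out of the cell.

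The promoters below are of genes with different patterns in the values that follow. Gclm, Mafg and Bmp6 had more signal after the drug, Abcc4 had more in the knockout, and Txnrd1 was not told apart. They are RefSeq sequences of assembly GRCm38.p6, written 5′ to 3′ on the gene's strand and ending at or before the transcription start. Capitals mark a match to an antioxidant response element core, TGACNNNGC, on either strand.
Gclm: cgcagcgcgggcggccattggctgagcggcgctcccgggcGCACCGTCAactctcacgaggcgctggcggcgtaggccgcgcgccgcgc
Mafg: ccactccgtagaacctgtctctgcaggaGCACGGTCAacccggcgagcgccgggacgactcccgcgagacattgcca
Bmp6: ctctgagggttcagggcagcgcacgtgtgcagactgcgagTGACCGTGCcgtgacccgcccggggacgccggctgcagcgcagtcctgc
Abcc4: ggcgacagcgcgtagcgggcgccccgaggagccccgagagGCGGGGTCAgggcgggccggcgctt
Txnrd1: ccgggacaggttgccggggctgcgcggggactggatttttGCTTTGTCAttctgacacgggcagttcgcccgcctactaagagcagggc
The stretches lie at chr3:122245383-122245471 (plus strand) for Gclm, chr11:120633721-120633797 (minus) for Mafg, chr13:38345568-38345656 (plus) for Bmp6, chr14:118706220-118706284 (minus) for Abcc4 and chr10:82859074-82859162 (plus) for Txnrd1. The matches begin 134, 222, 108, 25 and 92 bases before the start, in that order of genes. Where a gene has several starts, a window that holds a match is shown. All genes printed here hold a match, which is not typical of the genes named below. Nqo1, Cbr1, Cbr3, Gpx2 and Bach1, for example, held 0 matches in their windows. The windows run from 250 bases before a start to 50 after it, and matches farther out were not searched for.

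Such a match is common. Over all 32851 promoter windows of 300 bases, 12.4% held one. Counted by gene over all its windows, 17.4% of the 6856 tested genes with a window held one, against 24 of 175 (13.7%) of those called higher in CKO vehicle and 25 of 130 (19.2%) of those called lower. The metallothionein gene Mt2 was not told apart between the groups, and its promoter is shown for another pattern, TGCNCNC, also in capitals and on either strand. This pattern is looser than the core of the metal response element, which takes only A or G between TGC and the next C. TGCTCTC and GGGAGCA below match the pattern and not that core. It lies at chr8:94172368-94172617 (plus strand).
Mt2: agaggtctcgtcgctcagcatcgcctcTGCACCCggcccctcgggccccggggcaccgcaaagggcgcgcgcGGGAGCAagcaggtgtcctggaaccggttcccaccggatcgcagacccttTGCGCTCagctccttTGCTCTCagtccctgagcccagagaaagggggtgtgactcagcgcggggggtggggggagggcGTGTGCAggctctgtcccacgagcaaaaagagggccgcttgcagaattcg
This stretch holds 5 matches to TGCNCNC, and 51% of all windows hold at least 1. The Mt2 window also holds 1 match to the antioxidant response element core, which is left in lower case here. A match describes letters in a window and is not evidence of binding.

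Keap1 was read first, as a check of the labels. Values here and below are log2 signals, listed for WT CDDO-Im replicates 2, 3 and 4 and then for CKO vehicle replicates 3, 4 and 5, and differences are CKO vehicle minus WT CDDO-Im with limma's standard error (SE). Of 2 Keap1 probe sets, the one with the lower mean over all 12 arrays read 8.46, 8.89 and 8.66 after the drug against 2.87, 2.74 and 2.76 in the knockout, near the floor of the arrays. The other, which stood for the gene elsewhere, read 7.89, 8.08 and 7.76 against 6.51, 6.51 and 6.15. Both went with the labels in all 6 livers, and neither says how much protein was left.

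Arrays of the groups compared lay nearer to their own group than to the other. As the root mean square difference over tested genes, arrays within WT CDDO-Im lay 0.314 to 0.359 apart, arrays within CKO vehicle 0.337 to 0.401, and arrays of 1 group against the other 0.453 to 0.539. Replicate 4 of CKO vehicle lay farthest from its own group, at 0.361 and 0.401, and lay 0.359 from CKO CDDO-Im replicate 3. The mean level of hepatocyte markers was 15.40 to 15.41 after the drug and 15.33 to 15.39 in the knockout, ranges that do not overlap, and their difference was not tested. Of 15 tested markers 0 were called by limma, and 0 were higher and 1 lower at an unadjusted p under 0.05. That unadjusted threshold was passed by 1920 of all 8338 tested genes, counting both directions.

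Of 8338 tested genes, 358 (4.29%) differed between the groups at an adjusted p under 0.05. Signal was higher in CKO vehicle for 202 (2.42%) and lower for 156 (1.87%). The difference was at least 2-fold for 56 of the higher and 44 of the lower genes. The values of the 2 groups did not overlap for 357 of the 358 called genes, while 27.8% of all tested genes had groups that did not overlap. The median difference over all tested genes was 0.01. The count depends on single livers: it was 108 without CKO vehicle replicate 3 and 182 without replicate 4, and it was 211, 126 and 201 without WT CDDO-Im replicates 2, 3 and 4.

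**Figure D1:**
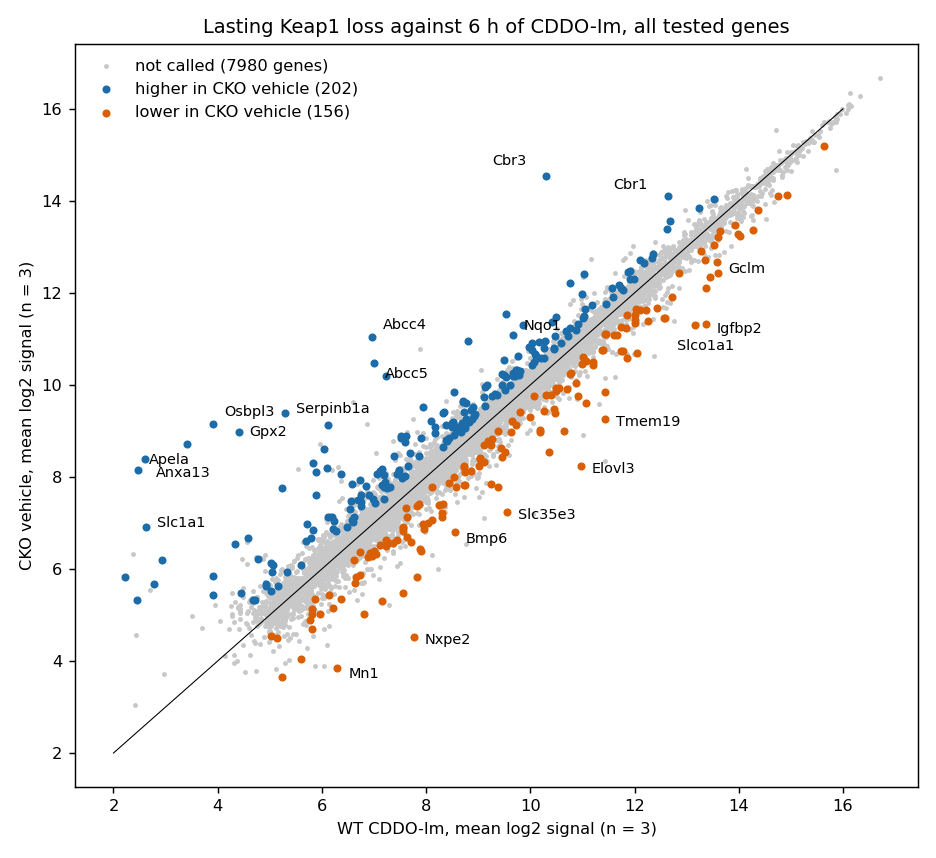
Mean log2 signal of each tested gene in WT CDDO-Im livers (x axis) and in CKO vehicle livers (y axis), 3 livers each, with the line of equal signal. Blue marks the 202 genes called higher in CKO vehicle and orange the 156 called lower. The genes farthest above the line, such as Apela and Anxa13, lie near the floor on the x axis, while most genes farthest below it have signal in both groups.

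Each group was also set against WT vehicle to say from which side a difference came. CKO vehicle differed from WT vehicle at 543 genes (6.51%), with 271 (3.25%) higher and 272 (3.26%) lower. WT CDDO-Im differed from WT vehicle at 304 genes (3.65%), with 157 (1.88%) higher and 147 (1.76%) lower. These comparisons share the 3 WT vehicle arrays, so their values stand side by side below and nothing is drawn from their likeness.

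The differences of largest size were in genes with signal in the knockout and close to none after the drug. Genes of largest difference, in either direction, were named only where the groups did not overlap, so their lack of overlap adds no support. Those near the floor after the drug passed the signal filter through the knockout livers. Apela, which encodes a peptide ligand of the apelin receptor, read 2.66, 2.36 and 2.38 after the drug against 8.79, 7.52 and 8.16 in the knockout. Anxa13, an annexin of epithelial membranes, read 2.47, 3.05 and 2.28 against 8.32, 8.48 and 8.36. In both genes every knockout liver was far above every drug-treated liver, and the differences were 5.69 ± 0.26 (adjusted p = 4.24e-06) and 5.79 ± 0.57 (adjusted p = 0.00103). WT vehicle livers averaged 2.60 for Apela and 3.59 for Anxa13, and the drug did not pass the test for either (adjusted p = 0.837 and 0.382). Averaging all probe sets of Apela brought its difference to 3.30. Linear folds are not given here, since 1 group lay below a log2 signal of 5.

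A pair of plasma membrane carriers behaved the same way. Slc1a1, a carrier of glutamate and cysteine, read 2.62, 2.63 and 2.63 after the drug, the level of WT vehicle (2.64), and 7.13, 7.37 and 6.24 in the knockout. Slc22a12, a urate transporter, read 3.37, 3.45 and 3.39 against 9.02, 8.38 and 8.78. The groups were wide apart in both, with differences of 4.29 ± 0.24 (adjusted p = 1.84e-05) and 5.32 ± 0.51 (adjusted p = 0.000896). The Slc22a12 probe set is of a type that can match more than 1 transcript.

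Gpx2, a glutathione peroxidase best known from gut epithelium, was the sole called member of 17 tested genes of thioredoxin and peroxide defence. Its signal was 3.98, 4.50 and 4.74 after the drug and 8.95, 9.24 and 8.72 in the knockout, a difference of 4.56 ± 0.55 (adjusted p = 0.00278). WT vehicle averaged 4.85, so the drug-treated livers were no higher than vehicle. Tinag, a basement membrane protein, read 2.26, 2.22 and 2.22 against 6.16, 6.58 and 4.73. Heph, a copper-dependent ferroxidase, read 2.53, 2.59 and 3.23 against 5.92, 5.38 and 5.71. Pls1, an actin bundler of microvilli, read 2.47, 2.83 and 3.48 against 6.01, 6.72 and 5.83. None of these 3 overlapped between the groups, as the rule for naming them required. They differed by 3.59 ± 0.42, 2.88 ± 0.32 and 3.26 ± 0.37 (adjusted p = 0.00271, 0.002 and 0.002).

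Further genes were higher in the knockout from a measurable level after the drug. Lad1, a filament-anchoring protein of basement membranes, averaged 6.11 after the drug and 9.14 in the knockout, which is 8.16-fold (difference 3.03 ± 0.42, adjusted p = 0.00621). Cd36, which carries fatty acids into cells, averaged 8.81 and 10.97, which is 4.47-fold (2.16 ± 0.41, adjusted p = 0.0209), and its other 2 probe sets differed in the same direction. Orm3, an acute phase protein, averaged 6.10 and 8.19 (2.09 ± 0.42, adjusted p = 0.0252). Serpinb1a, an inhibitor of neutrophil proteases, varied widely after the drug, at 3.91, 6.24 and 5.74, and read 8.78, 10.31 and 9.08 in the knockout (4.10 ± 0.81, adjusted p = 0.0241). The calls of Cd36, Orm3 and Serpinb1a were lost without CKO vehicle replicate 3 or 4, those of Cd36 and Orm3 also without WT CDDO-Im replicate 3 or 4, and that of Serpinb1a without WT CDDO-Im replicate 2 (adjusted p at most 0.119 over all alternatives).

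**Figure D2:**
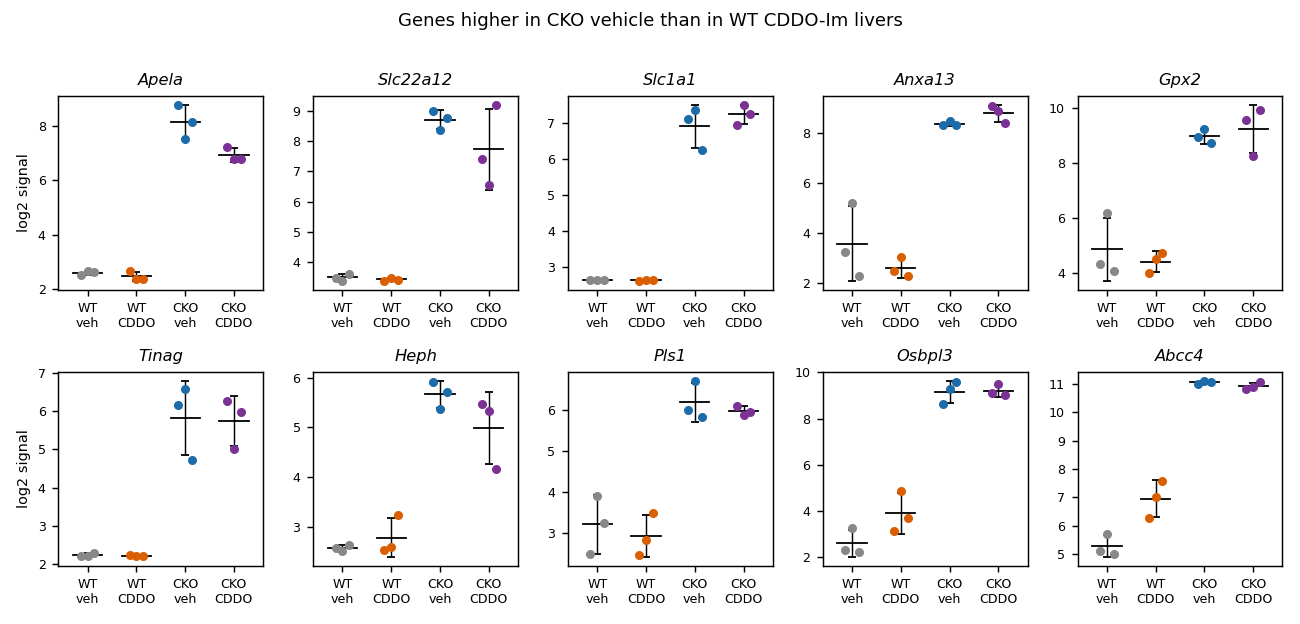
Log2 signal of 10 genes in each of the 12 livers (points), with the mean and SD of each group of 3 (bars). In all 10 panels the CKO vehicle points lie above the WT CDDO-Im points, and the WT CDDO-Im means are within 1 log2 unit of WT vehicle except for Osbpl3 and Abcc4. All 10 genes are among the largest differences without overlap, so the gap between these points was a condition of that choice.

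The efflux pump Abcc4 and the reductases Cbr3, Cbr1, Nqo1 and Blvrb rose over WT vehicle after the drug, and the knockout stood higher still. Abcc4, which exports conjugates across the sinusoidal membrane, read 6.28, 7.03 and 7.57 after the drug against 10.99, 11.09 and 11.07 in the knockout, with WT vehicle at 5.29. The knockout livers were tightly grouped and 17.0-fold above the drug-treated ones (4.09 ± 0.28, adjusted p = 8.09e-05). The rise over WT vehicle was 1.67 after the drug (adjusted p = 0.011) and 5.76 in the knockout (adjusted p = 3.92e-06). Abcc5, a related efflux pump, read 6.74, 6.54 and 7.71 after the drug and 10.72, 10.27 and 10.42 in the knockout, an 11.1-fold difference (3.47 ± 0.27, adjusted p = 0.000194), and its drug value did not pass against WT vehicle at 6.54, 6.48 and 6.48 (adjusted p = 0.341). Osbpl3, an oxysterol-binding protein relative, read 3.14, 4.89 and 3.72 against 8.63, 9.28 and 9.57 (5.24 ± 0.43, adjusted p = 0.000327), and its drug value did not pass either (adjusted p = 0.127 against WT vehicle). The mean of its probe sets differed by 2.82.

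Carbonyl reductases followed the same order. Cbr3 read 10.24, 10.05 and 10.62 after the drug and 14.56, 14.99 and 14.08 in the knockout, while WT vehicle lay at 3.14, 7.16 and 3.01. No knockout liver overlapped a drug-treated one, and the difference was 18.9-fold (4.24 ± 0.88, adjusted p = 0.0279). Cbr1 read 12.70, 12.44 and 12.77 against 14.08, 14.20 and 14.02, a 2.76-fold difference (1.47 ± 0.16, adjusted p = 0.00189), with WT vehicle at 11.16. Nqo1, the quinone reductase most often used as a readout of Nrf2, read 9.86, 9.59 and 9.56 against 11.04, 11.16 and 11.05, a 2.67-fold difference with WT vehicle at 6.22.

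The groups did not overlap for Nqo1, but its test was at the limit (1.42 ± 0.35, adjusted p = 0.0497). It was lost without WT vehicle replicate 2, without any 1 of the WT CDDO-Im, CKO vehicle or CKO CDDO-Im livers (adjusted p at most 0.127 over all alternatives), and called without WT vehicle replicate 1 or 3 (as low as 0.00153). WT vehicle livers were spread from 5.18 to 6.96 for this gene, and the fit shares its spread over all 4 groups. The Cbr3 call was lost without CKO vehicle replicate 3 or 4 or any 1 of the WT CDDO-Im livers, with an adjusted p of at most 0.0959 over all alternatives. Ptgr1, a reductase of prostaglandins and alkenals, averaged 4.78 after the drug, not above WT vehicle at 5.22, and 6.23 in the knockout (1.45 ± 0.33, adjusted p = 0.036). That call was lost without CKO vehicle replicate 3 or 4, WT CDDO-Im replicate 2 or 3, or CKO CDDO-Im replicate 4 (adjusted p at most 0.127 over all alternatives).

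Of 17 tested quinone and carbonyl reductases, 4 were called higher in the knockout and 1 lower, against 2.42% and 1.87% of all tested genes. The list median was -0.13. The groups did not overlap for 12 (70.6%), against 27.8% of all tested genes. The lower one was Akr1c19, an aldo-keto reductase, at 13.65, 14.17 and 14.27 after the drug and 13.07, 13.45 and 13.16 in the knockout. Both groups were above WT vehicle at 12.07, and the drug-treated livers were the higher (-0.80 ± 0.19, adjusted p = 0.0427), a call lost without any 1 of 8 livers (CKO vehicle 3, 4 and 5, WT CDDO-Im 3 and 4, WT vehicle 3, CKO CDDO-Im 3 and 4), with an adjusted p of at most 0.138 over all alternatives. The reductases called between the groups were therefore not all higher on the same side.

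Among 19 glutathione S-transferases, which attach glutathione to electrophiles, 1 was called, Gstm2. It read 10.70, 10.74 and 10.85 after the drug and 12.36, 12.08 and 12.18 in the knockout, 2.72-fold higher (1.45 ± 0.16, adjusted p = 0.002). Gstm genes are close relatives, and probe sets may share signal among them. The list median was 0.08, and 6 members were higher and 1 lower at an unadjusted p under 0.05. In either direction, 1920 of all 8338 tested genes passed that threshold. Blvrb, which reduces biliverdin, averaged 13.24 after the drug and 13.85 in the knockout, both above WT vehicle at 12.25 (0.60 ± 0.11, adjusted p = 0.0215). The Blvrb call was lost without CKO vehicle replicate 3 or 4 or WT CDDO-Im replicate 2 or 3 (adjusted p at most 0.0872 over all alternatives).

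Another set of defence genes was not told apart between lasting Keap1 loss and 6 h of drug. Txnrd1, the cytosolic thioredoxin reductase, read 13.31, 13.44 and 13.24 after the drug and 13.16, 13.18 and 12.97 in the knockout, with WT vehicle at 11.93. The drug-treated livers were the higher with no overlap, by a small margin that did not pass (-0.23 ± 0.13, 95% interval -0.51 to 0.05, adjusted p = 0.308). Gclc, the catalytic subunit that makes the glutathione precursor, read 14.10, 14.14 and 14.04 against 13.75, 13.89 and 13.57, with WT vehicle at 12.59 (-0.36 ± 0.11, interval -0.59 to -0.12, adjusted p = 0.0823). Its groups did not overlap, and over 8338 genes the difference missed the threshold.

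Srxn1, which repairs oxidised peroxiredoxins, read 12.32, 12.94 and 12.61 after the drug and 11.91, 11.84 and 11.68 in the knockout, against 9.55 in WT vehicle (-0.82 ± 0.25, interval -1.38 to -0.25, adjusted p = 0.0935), and its groups did not overlap. Hmox1, heme oxygenase 1, overlapped between the groups at 7.81, 8.32 and 8.08 against 7.91, 7.39 and 7.65 (-0.42 ± 0.29, interval -1.05 to 0.21, adjusted p = 0.414). Its rise over WT vehicle passed the test after the drug (1.47, adjusted p = 0.022) and not in the knockout (1.05, adjusted p = 0.0557), and the direct difference just given is the test between them. The mean of all probe sets differed by -0.07 for Txnrd1 and -0.51 for Srxn1. None of these intervals shows that the stimuli act alike.

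Metallothioneins bind zinc and copper and rise with many stresses. Mt1 read 13.08, 12.56 and 13.44 after the drug and 13.93, 13.12 and 13.72 in the knockout, where WT vehicle averaged 8.70. Mt2 read 12.73, 11.37 and 13.09 against 13.62, 12.76 and 12.93, with WT vehicle at 7.16. The groups overlapped for both, and the differences were 0.56 ± 0.46 (interval -0.45 to 1.58, adjusted p = 0.503) and 0.71 ± 0.55 (interval -0.52 to 1.93, adjusted p = 0.486). Against WT vehicle both genes were higher by 4.32 to 5.94 in either group. Of 12 tested metallothioneins and zinc transporters 0 were called by limma between the groups, and 4 were higher and 1 lower at an unadjusted p under 0.05. Over all 8338 tested genes, 1920 passed that threshold in either direction.

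Drug-treated livers stood above the knockout in a subunit of glutathione synthesis and in genes that control Nrf2. Gclm, the modifier subunit that pairs with Gclc, read 13.51, 13.79 and 13.45 after the drug and 12.71, 12.68 and 12.61 in the knockout, with WT vehicle at 12.42, 12.47 and 12.66. The drug-treated livers were apart from all others and 1.89-fold above the knockout (-0.92 ± 0.11, adjusted p = 0.00327), while the knockout was not told apart from WT vehicle (0.15, adjusted p = 0.473). Its partner Gclc passed against WT vehicle in the knockout (1.14, adjusted p = 0.000311). Gclm was the sole call among 11 tested genes of glutathione synthesis and recycling (list median 0.02).

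Mafg, a small Maf partner of Nrf2, read 10.91, 10.75 and 10.68 against 10.37, 10.22 and 10.22, with WT vehicle at 9.76 (-0.51 ± 0.09, adjusted p = 0.0146). Bach1, a repressor that competes for the same elements, read 10.80, 10.69 and 10.64 against 9.79, 9.66 and 10.28, with WT vehicle at 9.57 (-0.80 ± 0.14, adjusted p = 0.0174). Both were higher after the drug with no overlap, and the Bach1 call was lost without CKO vehicle replicate 3 or WT CDDO-Im replicate 2 or 3 (adjusted p at most 0.0858 over all alternatives). Keap1 itself differed by -1.52 ± 0.20 (adjusted p = 0.00449); against WT vehicle its difference was -0.68 in the knockout (adjusted p = 0.0712) and 0.84 after the drug (adjusted p = 0.0478). The other Keap1 probe set averaged 8.01 in WT vehicle and 2.79 in the knockout. Of 10 tested Keap1-Nrf2 regulators, 3 were called lower in the knockout and 0 higher, against 1.87% of all tested genes called lower. The 3 were Bach1, Mafg and Keap1. Keap1 is the deleted gene, and as just given its probe set also had more signal after the drug than in WT vehicle. Nfe2l2, which encodes Nrf2, was not told apart (10.59 after the drug and 10.36 in the knockout, adjusted p = 0.342), and both means were below WT vehicle at 11.12, a difference that passed in the knockout (-0.76, adjusted p = 0.0102) and not after the drug (-0.52, adjusted p = 0.064). Averaging all probe sets of a gene brought the direct difference to -0.80 for Mafg and -3.70 for Keap1, and turned that of Nfe2l2 to 0.14 (adjusted p = 0.638).

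Bmp6 and Slc35e3 rose over WT vehicle after the drug (2.51 and 1.85, adjusted p = 0.000934 and 0.022) and were not told apart from it in the knockout (0.76 and -0.46, adjusted p = 0.118 and 0.494). Bmp6, the signal that sets hepcidin and so iron uptake, read 8.63, 8.51 and 8.50 after the drug against 7.12, 6.96 and 6.33 in the knockout, and 5.64, 6.51 and 5.96 in WT vehicle. It was 3.36-fold higher after the drug than in the knockout (-1.75 ± 0.26, adjusted p = 0.00811). In the list of heme and iron genes, 1 of 16 tested was higher in the knockout (Blvrb) and 1 lower (Bmp6). Slc35e3, a solute carrier family member, read 9.28, 9.61 and 9.77 against 7.43, 6.85 and 7.45, a 4.94-fold difference (-2.30 ± 0.36, adjusted p = 0.00874). Ppm1k, a mitochondrial phosphatase of branched-chain amino acid breakdown, read 9.70, 8.99 and 9.44 after the drug, 7.95, 7.34 and 8.04 in the knockout and 8.88, 8.74 and 8.18 in WT vehicle, and passed the test in the direct comparison alone (-1.60 ± 0.24, adjusted p = 0.00811; adjusted p = 0.106 and 0.0694 against WT vehicle).

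**Figure D3:**
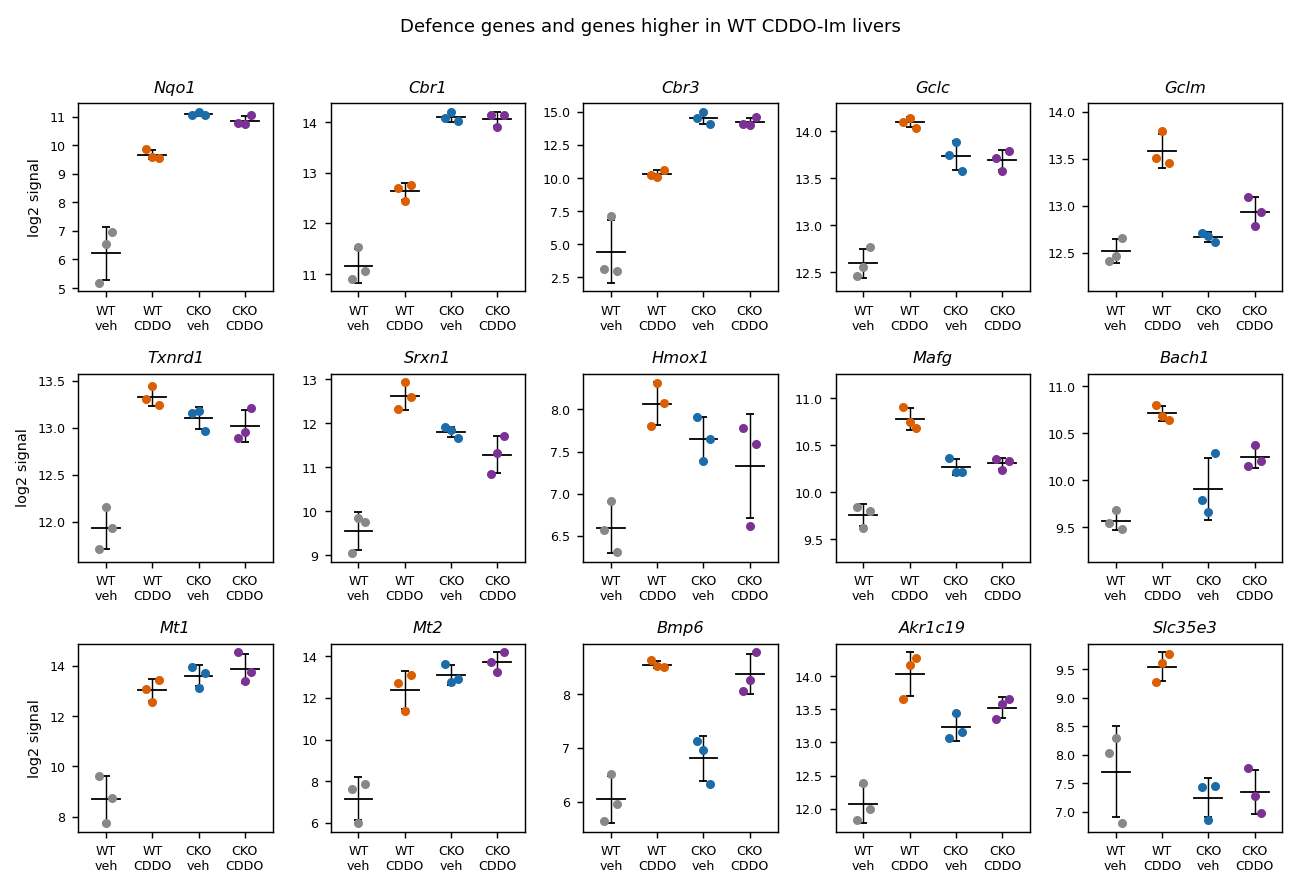
Log2 signal of 15 genes in each of the 12 livers (points), with the mean and SD of each group of 3. Nqo1, Cbr1 and Cbr3 are highest in the CKO groups, Gclm, Mafg, Bach1 and Slc35e3 are highest in WT CDDO-Im, and the WT CDDO-Im and CKO vehicle points overlap for Hmox1, Mt1 and Mt2.

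Some differences came from a fall after the drug with the knockout left near WT vehicle. Angptl8, a fed-state regulator of lipoprotein lipase, read 7.66, 6.65 and 7.38 after the drug, 10.85, 10.91 and 8.86 in the knockout and 9.58, 11.07 and 11.33 in WT vehicle. Its drug-treated livers were the lowest of the 3 groups and 7.87-fold under the knockout (2.98 ± 0.68, adjusted p = 0.0378). Rpia, an isomerase of the pentose phosphate pathway, averaged 7.94 after the drug, 9.53 in the knockout and 9.56 in WT vehicle (1.59 ± 0.30, adjusted p = 0.0219). It was the sole call among 9 tested genes of NADPH supply and the pentose phosphate pathway, and its fall against WT vehicle passed the test (-1.62, adjusted p = 0.0197). The Angptl8 and Rpia calls were lost without CKO vehicle replicate 3 or 4 or WT CDDO-Im replicate 3 or 4, and that of Angptl8 also without WT CDDO-Im replicate 2 or WT vehicle replicate 2 (adjusted p at most 0.13 over all alternatives).

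Fatty acid and triglyceride synthesis was divided between the groups. Of 26 tested genes, 2 were higher and 3 lower in the knockout, against 2.42% and 1.87% of all tested genes, and the median was 0.25. The groups did not overlap for 13 (50%), against 27.8% of all tested genes. The lower ones were elongases and a desaturase of long chains: Elovl3 read 10.51, 10.54 and 11.88 after the drug against 9.37, 7.29 and 8.08 in the knockout, with WT vehicle at 11.41. Fads1, the delta-5 desaturase, averaged 12.06 after the drug and in WT vehicle 12.05, and 10.70 in the knockout. Elovl2 averaged 12.25 and 11.40. These differed by -2.73 ± 0.58, -1.35 ± 0.28 and -0.85 ± 0.17 (adjusted p = 0.0292, 0.0279 and 0.0264). The mean of the Fads1 probe sets differed by -0.74, which did not pass (adjusted p = 0.105).

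The higher ones fell after the drug. Agpat2, an acyltransferase on the way to triglyceride, averaged 12.10 after the drug, 12.72 in the knockout and 12.91 in WT vehicle (0.62 ± 0.12, adjusted p = 0.0252). Elovl1, an elongase of very long saturated chains, averaged 9.47, 10.23 and 10.07 in that order (0.77 ± 0.14, adjusted p = 0.0186), and its other 2 probe sets differed in the same direction. Against WT vehicle, 9 of the 26 were lower in the knockout and 10 after the drug, with 0 higher in either. Over all tested genes, 3.26% were lower in the knockout and 1.76% after the drug. The 5 direct calls were each lost without 1 or more of CKO vehicle replicates 3, 4 and 5 and WT CDDO-Im replicates 2, 3 and 4, with an adjusted p of at most 0.105 over the alternatives, and leaving out 1 liver gave 0 to 3 higher and 0 to 4 lower members.

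The genes with the lowest signal in the knockout relative to the drug were mostly near WT vehicle after the drug. Nxpe2 read 7.71, 7.56 and 8.01 after the drug, 3.67, 5.02 and 4.87 in the knockout and 7.94 in WT vehicle (-3.24 ± 0.29, adjusted p = 0.000565). Mn1, a transcriptional coregulator, read 6.45, 6.21 and 6.24 against 3.93, 3.58 and 4.06 (-2.44 ± 0.32, adjusted p = 0.00415). Tmem19, a membrane protein, read 11.20, 11.72 and 11.39 against 9.47, 9.42 and 8.90, which is 4.51-fold (-2.17 ± 0.21, adjusted p = 0.000896). The groups were far apart in all 3, and these calls held in every alternative and without any single liver. Averaging all probe sets of Nxpe2 brought its difference to -1.62.

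Slco1a1, an uptake carrier of organic anions with more signal in male liver, read 13.03, 13.05 and 13.41 after the drug against 11.75, 10.59 and 11.59 in the knockout, 3.61-fold lower (-1.85 ± 0.32, adjusted p = 0.0146). With Slc22a12, Abcc4 and Abcc5 it made 3 higher and 1 lower of 19 tested transporters (list median -0.05), against 2.42% and 1.87% of all tested genes. The other 15, further efflux pumps among them, were not called, and over the list 9 differences were positive and 10 negative. Of 12 tested male-biased liver genes, 2 were lower in the knockout than after the drug, Elovl3 and Slco1a1, with a median of -0.31. The female-biased Cyp2b9 read 2.40, 2.35 and 2.35 after the drug and 2.49, 11.83 and 4.66 in the knockout, so that 1 liver set its mean (adjusted p = 0.255). Of 6 tested genes of the female-biased list, 1 was called, Sult2a8, a sulfotransferase, which was lower in the knockout (13.36 against 14.28, adjusted p = 0.0142). It averaged 14.47 in WT vehicle livers, which are male, so its values do not bear out that label. Cyp2b13, Cyp3a44, Cyp3a16, Sult3a1, Hao2 and Prom1 of the list averaged under 3 over the livers compared.

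Signalling and growth genes were among the lower ones. Igfbp2, a carrier of insulin-like growth factors, read 12.93, 13.46 and 13.73 against 10.61, 11.80 and 11.59 (-2.04 ± 0.44, adjusted p = 0.0312), and was the sole call of 13 genes of the IGF axis and activins. Gas1, a growth arrest protein, read 8.22, 7.95 and 7.33 against 5.09, 6.54 and 5.82 (-2.02 ± 0.41, adjusted p = 0.0264). Avpr1a, the vasopressin receptor of hepatocytes, averaged 7.56 and 5.49 (-2.08 ± 0.43, adjusted p = 0.0279). In these 3 genes the knockout livers were all below the drug-treated ones, and WT vehicle at 13.18, 8.13 and 7.22 was near the drug group. The mean of the Gas1 probe sets differed by -1.07.

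Cadps2, a factor of vesicle release, averaged 7.16 and 5.31 (-1.85 ± 0.30, adjusted p = 0.0112), and Hsd3b2, a steroid dehydrogenase, 10.64 and 9.00 (-1.64 ± 0.37, adjusted p = 0.0366). The call of Hsd3b2 was lost without any 1 of the 6 livers of the pair or CKO CDDO-Im replicate 3 (adjusted p at most 0.115 over all alternatives), and that of Cadps2 without CKO vehicle replicate 3. The calls of Igfbp2, Gas1 and Avpr1a were lost without WT CDDO-Im replicate 3; without CKO vehicle replicate 3 or 5 for Igfbp2 and Gas1 and replicate 4 for Avpr1a; without WT CDDO-Im replicate 2 for Gas1 and Avpr1a; and without WT CDDO-Im replicate 4 for Igfbp2 and Avpr1a (adjusted p over all alternatives at most 0.14).

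**Figure D4:**
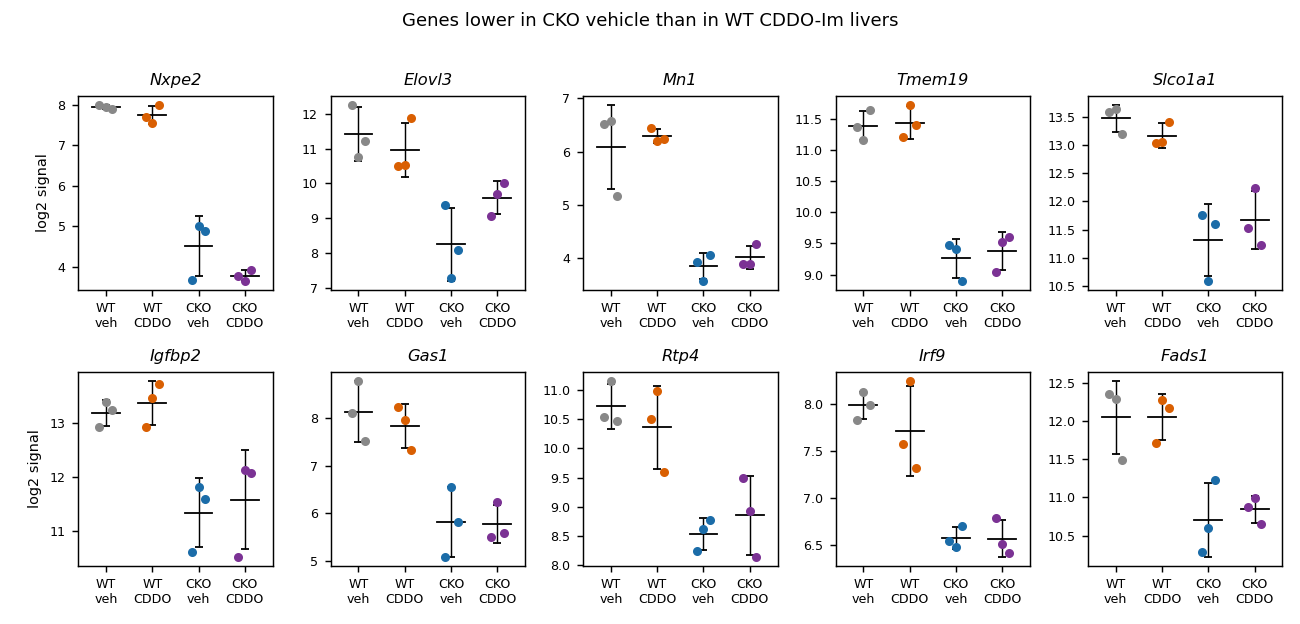
Log2 signal of 10 genes in each of the 12 livers (points), with the mean and SD of each group of 3. In all 10 panels the CKO vehicle points lie below the WT CDDO-Im points, and the WT CDDO-Im means are close to those of WT vehicle. Other than Irf9 and Fads1, the genes are among the largest differences without overlap, so the gap between these points was a condition of that choice.

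Interferon response genes, which cells switch on against viruses, leaned one way. Of 20 tested, 19 had less signal in the knockout than after the drug, and the median was -0.88, against 0.01 over all tested genes. The groups did not overlap for 13 (65%), against 27.8% of all tested genes. The test called 2 of them, both lower, against 1.87% of all tested genes called lower. Rtp4, an interferon-induced chaperone of receptors, read 10.51, 10.98 and 9.59 after the drug and 8.24, 8.61 and 8.77 in the knockout (-1.82 ± 0.39, adjusted p = 0.0316; -0.92 for the mean of its probe sets). Irf9, the DNA-binding part of the interferon-activated complex, read 7.57, 8.24 and 7.32 against 6.55, 6.49 and 6.70 (-1.13 ± 0.20, adjusted p = 0.0168). Trim30d, from a family with interferon-induced members, read 7.10, 6.63 and 6.71 against 4.36, 5.23 and 5.46 (-1.80 ± 0.31, adjusted p = 0.0146).

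All 3 had WT vehicle near the drug group, at 10.72, 7.98 and 6.72. Against WT vehicle, 8 of the 20 were lower in the knockout and 0 were called by limma after the drug. Over all tested genes, 3.26% were lower in the knockout and 3.65% were called after the drug. Leaving out 1 liver gave 0 to 4 lower members in the direct comparison, and the list median stayed between -1.06 and -0.77. The Rtp4 call was lost without any 1 of CKO vehicle replicates 3, 4 and 5, WT CDDO-Im replicates 2 and 3 and CKO CDDO-Im replicate 3, and that of Irf9 without CKO vehicle replicate 3 or 4 (adjusted p at most 0.11 over all alternatives). Lymphocyte markers had about the same mean level in both groups (3.25 to 3.31 after the drug, 3.29 to 3.35 in the knockout). That mean says little, since 9 of their 11 measured genes, among them Cd3e, Cd4, Cd8a and Ms4a1, averaged under a log2 signal of 3, close to the floor. Of the 2 tested, 0 were called, and 1 was higher in the knockout at an unadjusted p under 0.05. It was Ptprc, at 6.98 after the drug and 7.46 in the knockout (adjusted p = 0.186).

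**Figure D5:**
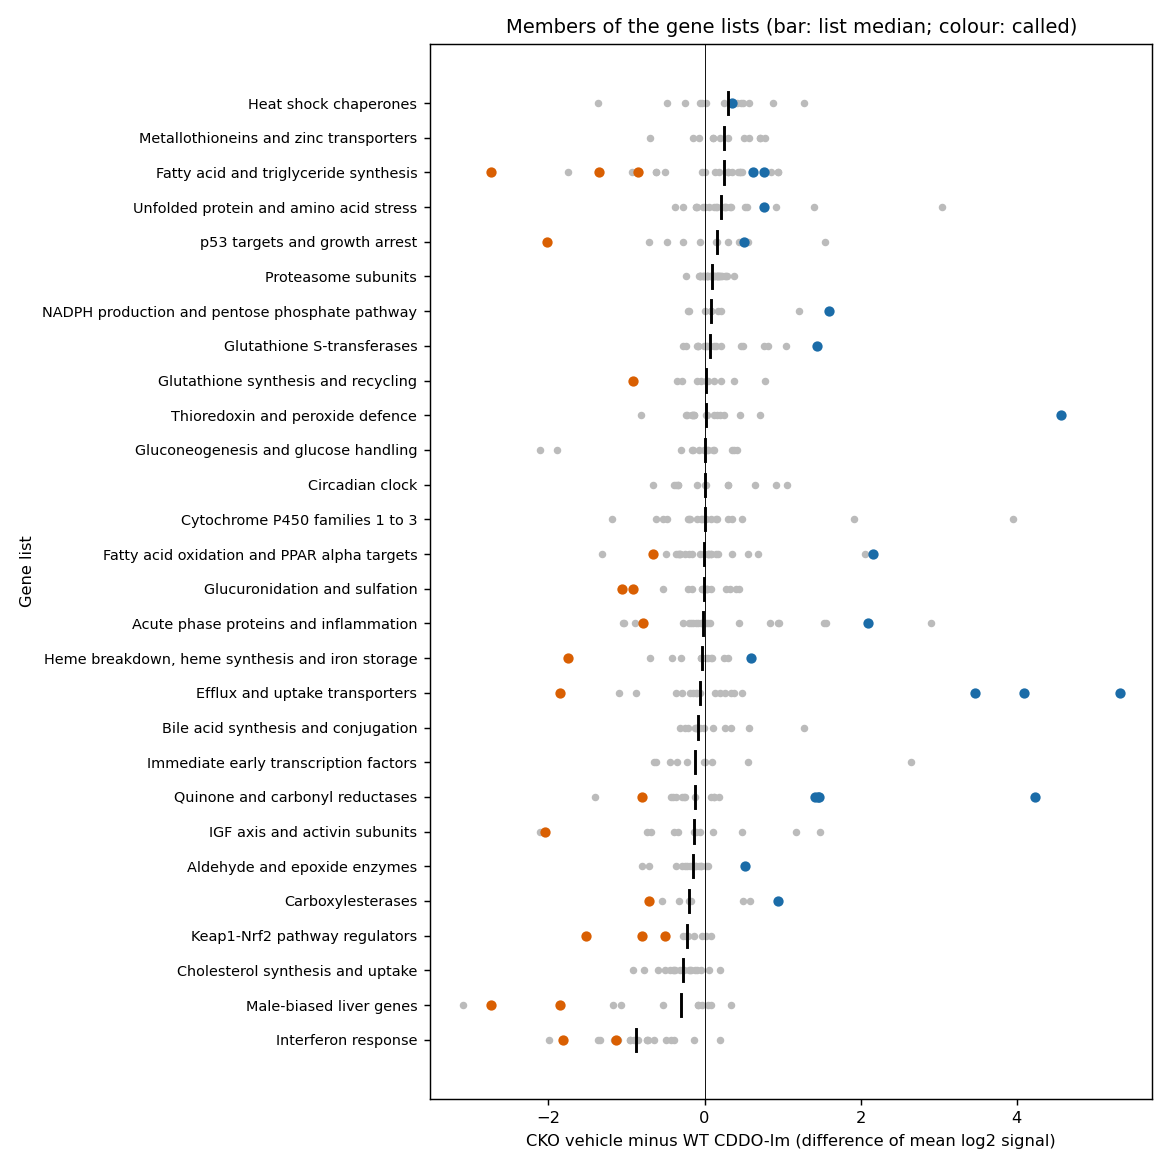
Difference of mean log2 signal, CKO vehicle minus WT CDDO-Im (x axis), for the tested members (points) of each pathway list with at least 9 tested genes (y axis), sorted by list median (black bars). Blue and orange points were called higher and lower in CKO vehicle and grey points were not called; the interferon list has the lowest median, -0.88.

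The other lists held few calls, beside 2.42% of all tested genes called higher and 1.87% called lower. Among 16 genes of glucuronidation and sulfation 2 were lower in the knockout, Sult2a8 and Sult5a1 (-1.05, adjusted p = 0.0452). Among 9 carboxylesterases Ces2g was higher (0.94, adjusted p = 0.0188) and Ces1f lower (-0.72, adjusted p = 0.0292), the latter from a probe set that can match more than 1 transcript. Among 25 genes of fatty acid oxidation Cd36 was higher and Fabp1, a fatty acid binding protein, lower (-0.66, adjusted p = 0.0451). Among 25 acute phase and inflammation genes Orm3 was higher and Stat3 lower (-0.78, adjusted p = 0.0368; -0.46 and 0.0876 for the mean of its probe sets). Among 16 aldehyde and epoxide enzymes Aldh1a7 was higher (0.51, adjusted p = 0.0468), and among 22 genes of the unfolded protein response Dnajb9, a chaperone of the endoplasmic reticulum, was higher (0.76, adjusted p = 0.0419). Each of these calls, other than those of Sult2a8 and Ces2g, was lost without at least CKO vehicle replicate 3 and WT CDDO-Im replicate 3 (adjusted p at most 0.155 over all alternatives); that of Ces2g was lost without WT CDDO-Im replicate 2 or 4, and that of Sult2a8 held without any single liver.

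Gas1 was lower and Gadd45b higher (0.50, adjusted p = 0.0179) among 12 genes of p53 and growth arrest; a second Gadd45b probe set differed by 3.23. Hspa4 was called higher among 14 heat shock chaperones (0.35, adjusted p = 0.0452), but its other probe sets differed the opposite way. Of the pericentral genes, Rhbg, an ammonium transporter, was 2.42-fold higher (1.28, adjusted p = 0.0173) and Gulo, an enzyme of vitamin C synthesis, lower (-0.50, adjusted p = 0.042) among 12 tested. All 4 of these calls were lost without WT CDDO-Im replicate 3, and those of Hspa4, Rhbg and Gulo also without WT CDDO-Im replicate 2 or CKO vehicle replicate 3.

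By limma, 0 members were called in 8 further pathway lists and among periportal genes. Cholesterol synthesis and uptake had 19 tested genes, of which 17 had a negative difference (median -0.28) and 2 were lower at an unadjusted p under 0.05. At that unadjusted threshold 2 of 22 cytochromes P450 were higher and 3 lower, 1 of 14 bile acid genes higher and 1 lower, and 1 of 14 genes of gluconeogenesis higher and 2 lower. Likewise 4 of 33 proteasome subunits were higher, 2 of 13 clock genes higher and 1 lower, 1 of 10 immediate early factors higher and 2 lower, and 2 of 11 periportal genes lower. Cell cycle had 4 tested genes, with 1 lower unadjusted. These list counts stand beside 1920 of all 8338 tested genes at the same unadjusted threshold, in either direction. Pck1, the gluconeogenic enzyme, averaged 13.20 after the drug and 11.32 in the knockout (adjusted p = 0.0751), and Igfbp1 11.02 and 8.91 (adjusted p = 0.168).

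Markers of other liver cells gave no calls. Among 13 macrophage and Kupffer cell, 11 stellate cell and 15 endothelial markers 0 were called by limma, and 1, 0 and 1 were higher and 0, 1 and 1 lower at an unadjusted p under 0.05. Of all 8338 tested genes, 1920 passed that threshold in either direction. The mean macrophage marker level was 8.26 to 8.41 after the drug and 8.28 to 8.82 in the knockout. For stellate markers it was 6.97 to 7.39 and 6.94 to 7.25, and for endothelial markers 7.22 to 7.51 and 7.36 to 7.52. The cholangiocyte markers Krt19, Krt7, Cftr and Cldn7 averaged under 3 over the 6 livers, as did some neutrophil, erythroid, adipose and pancreatic genes, among them S100a9, Slc4a1, Adipoq and Cpa1. Other members had signal. Alas2, from the erythroid list, averaged 11.06 after the drug and 10.31 in the knockout. Car3, from the adipose list, averaged 14.52 and 13.60, and Cela1, from the pancreatic list, 8.88 and 9.14. Adipoq, Lep, Cidec and Retn of the adipose list averaged under 3, so the signal of Car3 cannot be assigned to adipose tissue. Alas2, Car3 and Cela1 were not called (adjusted p = 0.276, 0.18 and 0.462). Of 2 tested genes of the adipose list, 1 was higher and 1 lower at an unadjusted p under 0.05. The part of other cell types in the differences above was not tested further.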

How the data were processed

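Liver RNA of 12 mice was hybridised to 1 Affymetrix mouse array per mouse. The deposited values are log2 signals of 45101 probe sets, made by the authors with GCRMA 2.12.1 (R 2.7.0), according to the submitters' processing notes, with settings not given in the sources used here. GCRMA models background from probe sequence and places unexpressed probe sets at a floor (16494 to 16776 per array), and a linear fold is therefore printed only for genes with a mean of at least 5 in each group compared.

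Groups and replicate numbers came from the labels. The platform annotation named 1 gene for 34945 probe sets, several for 932 and none for 9160, and 64 control probe sets were left out. Identifiers of 34741 probe sets matched RefSeq genes (GRCm38.p6). For each of 18193 genes the brightest probe set was used, and the 8338 genes with at least 3 arrays over 5 were tested.

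The groups' means were estimated with limma 3.58.1 (R 4.3.3), using all 4 groups and 12 arrays (8 residual and 2.32 prior degrees of freedom). P-values are two-sided and adjusted by Benjamini-Hochberg over the 8338 genes, with calls at an adjusted p under 0.05. The procedure was tested on simulated data, where it called 87% of 1-unit and 99% of 2-unit log2 changes. The comparison, the gene lists (42 lists, 713 genes, of which 645 had a probe set and 536 were tested) and the naming rule were chosen with earlier results of these data known.

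Genes were named if among the 15 called genes of largest difference in each direction without overlap (predicted genes left out), the 3 called members of largest difference per list and direction, the uncalled member of largest difference where a list had no call, or a fixed set of Nrf2 pathway genes and metallothioneins. The alternatives were quantile normalization, median centring, no filter or a filter at 7, averaged probe sets, a trended robust variance, the 6 arrays alone, the replicate number as a block, leaving out genes with repeated floor values, and leaving out each array; testing every probe set was added after seeing the data. The number of arrays limits the precision.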

Additional observations from a re-analysis of the deposited data

How the results depend on the processing

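The 358 direct calls were 328 to 409 under quantile normalization, median centring, a filter at 7, averaged probe sets, a trended robust variance, leaving out repeated values and every probe set. They were 205 with no filter (121 higher, 84 lower), where more genes were tested, and 112 with the 6 arrays alone (55 higher, 57 lower), where fewer samples set the spread. Leaving out 1 array gave 108 to 379 in all, 60 to 218 higher and 48 to 161 lower. CKO vehicle against WT vehicle gave 347 calls with no filter and 275 to 537 with 1 array left out, and WT CDDO-Im against WT vehicle gave 184 and 106 to 318. The replicate numbers 3 and 4 occur in both groups but belong to different mice, and the deviations of same-numbered arrays correlated at -0.12 and -0.17, so they do not pair them. With the replicate number as a block, 150 genes were called (68 higher, 82 lower; 96 shared with the main 358), and 55 and 114 in the comparisons with WT vehicle. The share called higher was 56.4%, against 45.3% with the block. Of 60 called genes named by rule, 19 stayed called in every alternative and without any single array, and 41 were lost in at least 1. Of the 26 uncalled ones, 8 were called in at least 1. Averaging probe sets reversed Hspa4 (-0.0422) and moved Apela to 3.30, Osbpl3 to 2.82, Rtp4 to -0.92, Gas1 to -1.07, Mafg to -0.80, Fads1 to -0.74, Stat3 to -0.46 and Keap1 to -3.70. The uncalled Nfe2l2 went to 0.14 under it. For genes near the floor of 1 group, the size of a difference depends on the background model.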

Other observations

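The knockout livers given the drug belong to neither group compared, and their values are given here without a test. They are means over 3 livers, with the SD after ± where it is given. For genes near the floor after the drug in control livers, they lay near the knockout given vehicle: Slc1a1 averaged 7.24, Anxa13 8.80, Gpx2 9.24, Tinag 5.75 and Osbpl3 9.20. Apela averaged 6.94 ± 0.24 with the drug and 8.15 ± 0.63 without it. Tmem19 (9.39), Mn1 (4.02), Nxpe2 (3.78) and Irf9 (6.57) were likewise near the knockout given vehicle.

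The means of Bmp6, Igfbp1 and Pck1 in CKO CDDO-Im lay above those in CKO vehicle. Bmp6 averaged 8.37 ± 0.37 in CKO CDDO-Im, 6.80 ± 0.42 in CKO vehicle and 8.55 ± 0.07 in WT CDDO-Im. Igfbp1, which binds insulin-like growth factors, averaged 11.59 ± 0.50 in CKO CDDO-Im against 8.91 ± 1.44 in CKO vehicle. Pck1 averaged 13.13 ± 0.25 against 11.32 ± 1.22, so the CKO vehicle livers were widely spread for both. Angptl8 averaged 8.42 ± 1.02 in CKO CDDO-Im, between WT CDDO-Im (7.23 ± 0.52) and CKO vehicle (10.20 ± 1.17). Gclm stood at 12.94 and Slc35e3 at 7.34 in CKO CDDO-Im, below their WT CDDO-Im means of 13.58 and 9.55.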
